A study of Mus musculus with 6 samples.

Results

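Mitochondria are renewed by fission, fusion and selective removal, and 10 mouse genes of these processes were followed in the villus epithelium of the duodenum. They are the kinase gene *Pink1*, the autophagy adaptor gene *Sqstm1*, the mitophagy receptor genes *Bnip3*, *Bnip3l* and *Fundc1*, the fusion genes *Mfn1*, *Mfn2* and *Opa1*, the fission gene *Dnm1l* and the import receptor gene *Tomm20*. They were chosen by name and each was matched through its Ensembl identifier to 1 row, so that all 10 were found among the 20409 features of the count table. The rule uses names, not counts, though earlier results of these data were known when the genes were chosen.

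RNA was sequenced from 3 double mutant mice (DMV, double mutant villi) and 3 wild-type mice (WTV, wild-type villi), with 1 library of polyadenylated RNA per mouse. The DMV mice carried Smad4 fl/fl, Ctnnb exon3 fl/wt and the Villin-CreERT2 transgene on a C57BL6-enriched background, which on induction removes Smad4 and gives a stabilised beta-catenin lacking the part encoded by exon 3. Tamoxifen was given at 0.05 g/kg on 4 days in a row and villi were taken 7 days after induction, while the WTV mice were littermates without injection. Villin drives the Cre in the whole intestinal epithelium, so every epithelial lineage of a DMV mouse can be recombined. Since only the DMV mice were injected, tamoxifen and genotype cannot be told apart. Each group held 1 male (replicate 1) and 2 females, and the sources used here give no age in numbers. Villi were released with EDTA and kept on a filter, with no sort for a cell type.

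Mitophagy is the removal of whole mitochondria by autophagy. PINK1, a kinase that builds up on damaged mitochondria, marks them with phosphorylated ubiquitin, whereas receptors such as BNIP3, NIX (the product of *Bnip3l*) and FUNDC1 sit in the outer membrane and bind the ATG8 proteins of the forming autophagosome directly. Mitofusins and OPA1 fuse the outer and inner membranes, the dynamin DRP1 (from *Dnm1l*) divides the organelle, and TOM20 takes up precursor proteins from the cytosol. In the gut epithelium, mitochondria fuel nutrient uptake in the enterocytes of the villus.

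Of the 10 genes, *Tomm20* rose and *Mfn2* fell in the double mutant villi, and the other 8 did not pass the threshold, an adjusted p under 0.05 by edgeR's quasi-likelihood test with Benjamini-Hochberg adjustment over the 13346 genes tested. *Tomm20* was 1.52-fold higher (95% interval 1.19 to 1.93, n = 3 mice per group) and *Mfn2* stood at 0.684 of its wild-type level (0.572 to 0.818). That is 2 of 10 genes called, against 36.8% of all genes tested. By direction it is 1 of 10 higher, against 19.7% of all genes, and 1 of 10 lower, against 17.0%. None of the 10 reached the log2 fold change of 2 that the methods of the study add to the adjusted p, a rule that 5.3% of all genes met. The 6 mice fell into non-overlapping groups for 7 of the 10 genes, beside 52.4% of all genes tested. The median log2 fold change of the 10 genes was -0.07, with 4 positive and 6 negative values, and that of all genes was 0.02.

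The libraries held 19678507 to 26337318 counts, and 3 counts corresponded to 0.114 to 0.152 CPM (counts relative to the library total, scaled here by edgeR's TMM factors), a floor for counting error only. *Smad4*, the deleted gene, had 26.1 to 36.8 CPM in DMV and 120 to 180 CPM in WTV (log2 fold change -2.22, adjusted p = 0.000145 in edgeR). Summed markers of epithelium and enterocytes stood at 43521 to 49730 CPM in WTV and 28740 to 33154 CPM in DMV, with 5 of 11 lower and 1 higher. Epithelial markers were thus high in every library, but this sum cannot show how much crypt epithelium each villus fraction held. Crypt and cycling markers summed to 16.4 to 104 CPM in WTV and 150 to 232 CPM in DMV (4 of 6 higher), and tuft cell markers to 91.0 to 126 and 12.8 to 13.8 CPM (all 5 lower). Enteroendocrine markers (4 of 5 lower) summed to 191 to 267 CPM in WTV and 90.7 to 97.1 CPM in DMV, and T cell markers (2 of 5 lower) to 42.1 to 79.5 and 25.9 to 37.7 CPM. Fibroblast and erythroid markers stayed at or below 0.845 CPM in any library, B and plasma cell markers at or below 2.18 CPM, macrophage markers at or below 8.69 CPM and smooth muscle markers at or below 11.3 CPM. Endothelial markers summed to 1.33 to 2.01 CPM in WTV and 2.88 to 3.29 CPM in DMV, and no marker present in the table was at 0 in all 6 mice. WTV replicate 1 stood apart in several of these sums, with 16.4 CPM of crypt and cycling markers against 84.9 and 104 CPM in WTV replicates 2 and 3, 99.8 CPM of goblet cell markers against 9052 and 9968 CPM, and 5.54 CPM of Paneth cell markers against 602 and 1015 CPM. The DMV sums of goblet cell markers (3822 to 4194 CPM) and Paneth cell markers (126 to 193 CPM) lay inside the WTV ranges. The enterocyte, crypt, tuft, enteroendocrine, T cell and endothelial sums, and that of fibroblasts (at most 0.0544 CPM in WTV, 0.141 to 0.464 CPM in DMV), did not overlap between the groups, and their part in the values of the 10 genes was not tested. In RNA from whole villi, fewer cells of a type and less RNA per cell cannot be told apart.

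**Figure D1:**
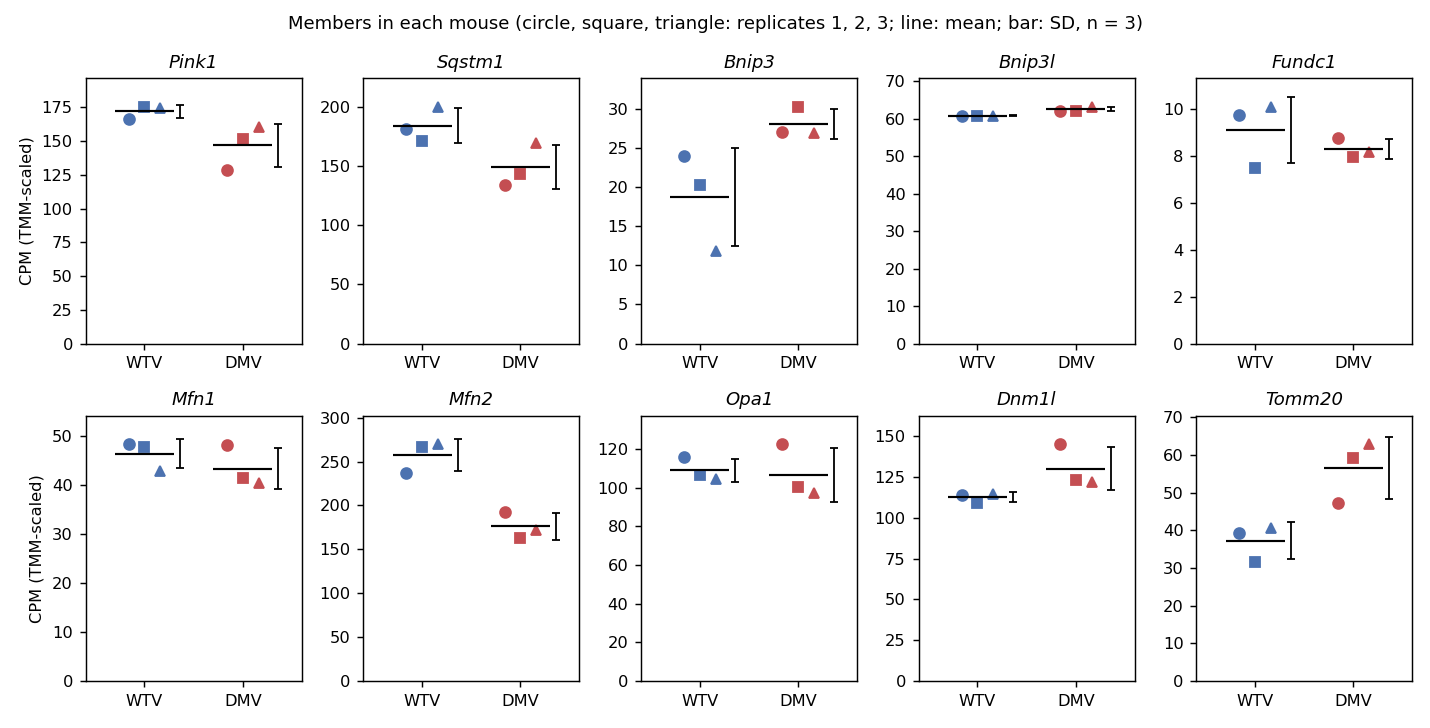
TMM-scaled CPM (vertical axes, each from 0) of the 10 genes in every mouse of the WTV and DMV groups. Symbols mark replicates 1 to 3, the line the mean and the bar the SD (n = 3). All DMV values of *Mfn2* lie below 193 CPM and all WTV values above 236 CPM, while those of *Tomm20* reach 47.2 to 62.9 CPM in DMV against at most 40.7 CPM in WTV.

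By group mean, the kinase and the adaptor were the most abundant of the 10 genes per length in wild-type villi. *Pink1* (ENSMUSG00000028756, minus strand, chr4:137869324-137882222 of mm9) had 166.5, 175.4 and 174.4 CPM in WTV replicates 1 to 3 and 128.9, 151.3 and 160.1 CPM in DMV replicates 1 to 3. Each DMV mouse was below each WTV mouse, and the spread was wider in DMV (SD 16.1 CPM) than in WTV (SD 4.89 CPM). The log2 fold change of -0.23 ± 0.113 (SE) had a 95% interval from -0.49 to 0.03 and an adjusted p of 0.147 in edgeR, so a difference in *Pink1* mRNA was not established, and a level in DMV anywhere between 0.713 and 1.02 of that in WTV lay within the interval. Without DMV replicate 1, the lowest mouse, the log2 fold change was -0.14 (adjusted p = 0.342 in edgeR).

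*Sqstm1* (ENSMUSG00000015837, minus strand, chr11:50012868-50024329) encodes p62, which links ubiquitin-marked cargo to the autophagosome. Its values were 180.9, 170.9 and 199.8 CPM in WTV and 133.9, 143.5 and 169.6 CPM in DMV. The groups were separated by a gap of little more than 1 CPM, between DMV replicate 3 and WTV replicate 2. The log2 fold change was -0.30 ± 0.124 (SE, 95% interval -0.59 to -0.02), with an adjusted p of 0.0875 in edgeR, short of the threshold. Of its exons, 580 bp overlap 3010026O09Rik on the opposite strand, a gene with 6 to 29 counts per mouse, and the strand setting of the counting is not given in the sources used here.

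The 3 mitophagy receptors differed from each other in level and in spread. *Bnip3* (ENSMUSG00000078566, minus strand, chr7:146082519-146101202), a receptor gene long known as a target of hypoxia-inducible factors, had 24.03, 20.29 and 11.78 CPM in WTV and 27.04, 30.29 and 26.96 CPM in DMV. The lowest WTV mouse, replicate 3, lay far below the other two, whereas the DMV mice lay close together and above all WTV mice. The log2 fold change was 0.59 ± 0.237 (SE, 95% interval 0.04 to 1.13), a ratio between 1.03 and 2.18, but its adjusted p in edgeR was 0.0854. Its size rested on single WTV mice. Without WTV replicate 3 the log2 fold change was 0.34 with an adjusted p of 0.139, and without WTV replicate 1 it was 0.81 with an adjusted p of 0.0158 in edgeR.

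*Bnip3l* (ENSMUSG00000022051, minus strand, chr14:67604076-67627714) encodes NIX, best known for clearing mitochondria from maturing red blood cells. It had 60.86, 60.82 and 60.65 CPM in WTV and 62.20, 62.20 and 63.18 CPM in DMV. All DMV mice were above all WTV mice, by less than 3 CPM. The log2 fold change of 0.04 ± 0.0962 (SE) had a 95% interval from -0.18 to 0.26 and an adjusted p of 0.771 in edgeR. *Fundc1* (ENSMUSG00000025040, minus strand, chrX:17133690-17149451), a receptor gene of hypoxic mitophagy, was the lowest of the 10 genes, with 138 to 234 counts per mouse. Its CPM ran from 7.507 to 10.11 in WTV and from 7.977 to 8.779 in DMV, so the DMV range lay inside the WTV range (log2 fold change -0.14, 95% interval -0.55 to 0.27, adjusted p = 0.589 in edgeR).

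Of the 3 fusion genes, 1 passed the threshold. *Mfn2* (ENSMUSG00000029020, minus strand, chr4:147247708-147278813) encodes mitofusin 2, which fuses outer membranes and also tethers mitochondria to the endoplasmic reticulum. It had 236.4, 266.1 and 269.8 CPM in WTV (257 ± 18.3, SD, n = 3) and 192.9, 162.8 and 172.4 CPM in DMV (176 ± 15.4, SD, n = 3). The highest DMV mouse was more than 40 CPM below the lowest WTV mouse. *Mfn2* fell by 0.55 on the log2 scale (SE 0.113, 95% interval -0.81 to -0.29, adjusted p = 0.00635 in edgeR). It passed the threshold without any single mouse, with log2 fold changes between -0.61 and -0.50, and in all 15 alternative fits of the adjusted p, but not where a log2 fold change of at least 1 was asked for as well.

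*Mfn1* (ENSMUSG00000027668, plus strand, chr3:32428387-32478161), the other mitofusin, ran from 42.86 to 48.24 CPM in WTV and from 40.35 to 47.98 CPM in DMV, with overlapping groups. Its log2 fold change of -0.10 (95% interval -0.37 to 0.17) had an adjusted p of 0.551 in edgeR. *Opa1* (ENSMUSG00000038084, plus strand, chr16:29579420-29654970), the dynamin of the inner membrane, ran from 104.7 to 115.8 CPM in WTV and from 97.11 to 122.5 CPM in DMV. The DMV range enclosed the WTV range (log2 fold change -0.03, 95% interval -0.31 to 0.25, adjusted p = 0.858 in edgeR). The interval of *Opa1* thus bounds a difference at about 0.31 on the log2 scale in either direction. It overlaps the interval of *Mfn2* (-0.81 to -0.29), and the difference between these genes was not tested.

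Ratios of related genes within a mouse do not depend on the scaling between libraries. The log2 ratio of *Mfn1* to *Mfn2*, both taken per kilobase of exon, was -2.48, -2.66 and -2.84 in the WTV mice and -2.19, -2.16 and -2.28 in the DMV mice. The groups did not overlap and differed by 0.45, with p = 0.1 in an exact two-sided permutation test, the smallest p that 3 mice against 3 allow. For *Bnip3* to *Bnip3l* the log2 ratio was -0.57, -0.81 and -1.60 in WTV and -0.43, -0.27 and -0.46 in DMV, a difference of 0.61 with the same exact p of 0.1. Without WTV replicate 3 this difference was 0.31, and without WTV replicate 1 it was 0.82. The WTV mice spread far more widely than the DMV mice in this ratio (SD 0.535 and 0.103), through the low *Bnip3* of WTV replicate 3.

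*Dnm1l* (ENSMUSG00000022789, minus strand, chr16:16312328-16359123) encodes DRP1, the dynamin that constricts and cuts mitochondria. It had 113.9, 109.1 and 114.9 CPM in WTV and 145.2, 123.1 and 122.3 CPM in DMV. All DMV mice were above all WTV mice, and DMV replicate 1 stood well above the rest. The log2 fold change of 0.21 ± 0.11 (SE, 95% interval -0.04 to 0.46) had an adjusted p of 0.169 in edgeR, and without DMV replicate 1 it was 0.13 (adjusted p = 0.34).

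*Tomm20* (ENSMUSG00000058779, minus strand, chr8:129458043-129469723) encodes the receptor of the outer membrane translocase and is widely used as a mark of mitochondrial mass. It had 39.28, 31.61 and 40.74 CPM in WTV (37.2 ± 4.91, SD, n = 3) and 47.18, 59.32 and 62.89 CPM in DMV (56.5 ± 8.24, SD, n = 3). The DMV mice were all higher, with replicate 1 nearest to the WTV mice. *Tomm20* rose by 0.60 on the log2 scale (SE 0.152, 95% interval 0.25 to 0.95, adjusted p = 0.0154 in edgeR). The call was close to the threshold. Without WTV replicate 2 the log2 fold change was 0.49 (adjusted p = 0.0541), without DMV replicate 2 it was 0.56 (adjusted p = 0.0543) and without DMV replicate 3 it was 0.52 (adjusted p = 0.0602 in edgeR).

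Near-identical copies can take reads from a gene or give reads to it, and *Tomm20* had the most. Of its transcript, 11 segments elsewhere in mm9 matched at 90% identity or more over at least 200 bp. The copy in the table, Gm14494 on chromosome 2, matches 99.6% over 1007 bp and held 56 to 117 counts per mouse, 6.96% to 10.4% of the *Tomm20* count. Adding these counts gave *Tomm20* a log2 fold change of 0.57 and an adjusted p of 0.0193 in edgeR. For *Bnip3l* the copy Gm10480 on chromosome 12 held 6.79% to 9.84% of its count, and the log2 fold change with the copy was 0.05. *Bnip3* had 7 matching segments, 2 of them in the table, and with their counts its log2 fold change was 0.58 (adjusted p = 0.0817 in edgeR). *Dnm1l* had 2 matching segments and *Sqstm1* had 1, and no counts were added for these genes. No such copy was found for *Pink1*, *Fundc1*, *Mfn1*, *Mfn2* or *Opa1*.

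**Figure D2:**
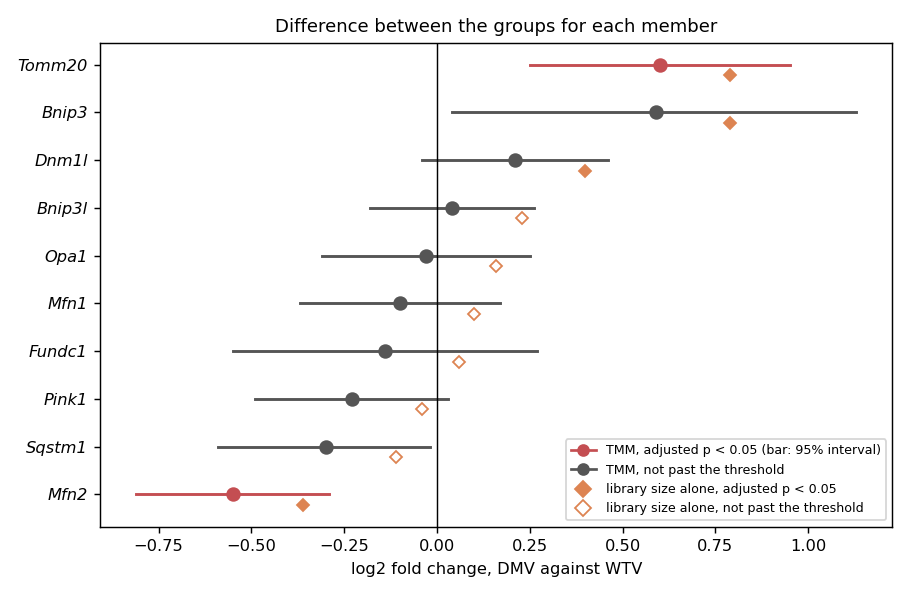
Log2 fold change of the 10 genes, DMV against WTV, from edgeR scaled by TMM and by library size alone. The 95% intervals, unadjusted for the number of genes, are drawn for TMM only. *Mfn2* and *Tomm20* passed the threshold under both scalings, and the values of all 10 genes lie higher by library size alone.

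The scaling between libraries set how many of the 10 genes passed. TMM factors ran from 0.912 to 0.961 in WTV and from 1.06 to 1.08 in DMV, and library size alone moved the median log2 fold change of all genes from 0.02 to 0.22. By library size alone, 3 of the 10 genes were higher, against 28.0% of all genes tested, namely *Tomm20* (0.79, adjusted p = 0.0042), *Bnip3* (0.79, adjusted p = 0.0238) and *Dnm1l* (0.40, adjusted p = 0.0236 in edgeR). With that scaling 1 of 10 was lower, *Mfn2* (-0.36, adjusted p = 0.0464 in edgeR), against 10.7% of all genes. Among all called genes, 53.7% were higher with TMM and 72.4% by library size alone. *Fundc1* (0.06), *Mfn1* (0.10) and *Opa1* (0.16) then had positive log2 fold changes, still short of the threshold.

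**Figure D3:**
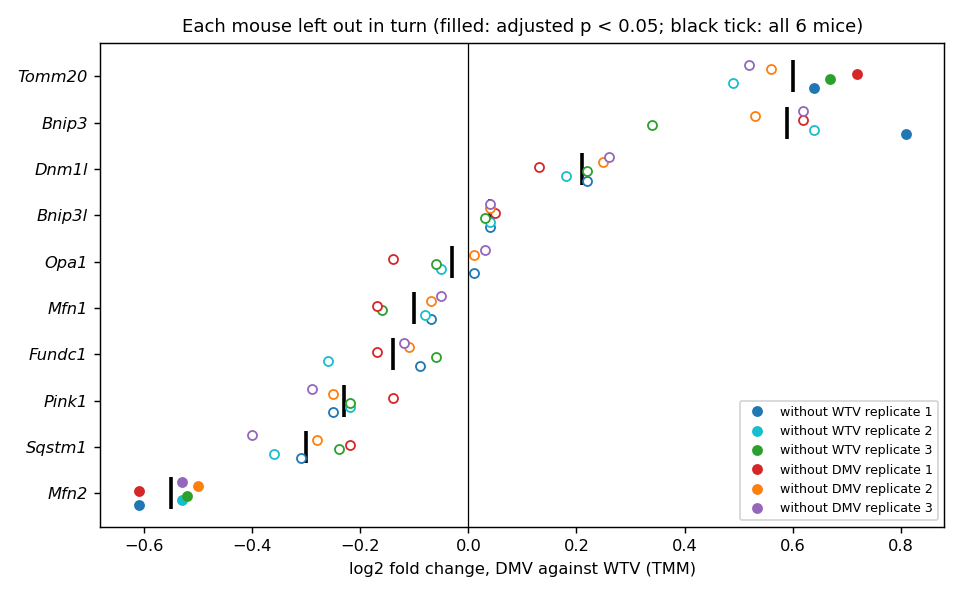
Log2 fold change (horizontal axis, edgeR with TMM) of the 10 genes with all mice and without each mouse in turn, with filled symbols where the adjusted p was under 0.05. *Mfn2* stays between -0.61 and -0.50, *Tomm20* runs from 0.49 to 0.72 and *Bnip3* from 0.34 to 0.81.

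The levels of the 10 genes were compared with each other only per length, as FPKM (counts per kilobase of exon, on the CPM scale, computed here from the counts with TMM and the summed exons of the mm9 annotation). In WTV the order ran from *Pink1* (64.4 ± 1.83 FPKM, SD) through *Sqstm1* (54.8 ± 4.36), *Mfn2* (49.6 ± 3.53), *Dnm1l* (26.9 ± 0.745), *Tomm20* (26.4 ± 3.48), *Bnip3l* (15.7 ± 0.028), *Opa1* (13.8 ± 0.764), *Bnip3* (8.26 ± 2.77) and *Mfn1* (7.84 ± 0.504) to *Fundc1* (3.90 ± 0.603). Neighbours overlapped between mice for *Sqstm1* and *Mfn2*, for *Dnm1l* and *Tomm20*, and for *Bnip3* and *Mfn1*. In DMV the first 5 genes, *Pink1* (54.9 ± 6.01 FPKM), *Sqstm1* (44.4 ± 5.51), *Tomm20* (40.1 ± 5.85), *Mfn2* (33.9 ± 2.96) and *Dnm1l* (31.1 ± 3.10), each overlapped between mice with its neighbour among these 5. *Tomm20* thus stood above *Mfn2* by mean FPKM in DMV and below it in WTV. The tail of the order, from *Bnip3l* (16.2 ± 0.146) to *Fundc1* (3.56 ± 0.179), held the same genes in the same sequence by mean FPKM, with *Opa1* and *Bnip3* overlapping between mice in DMV.

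**Figure D4:**
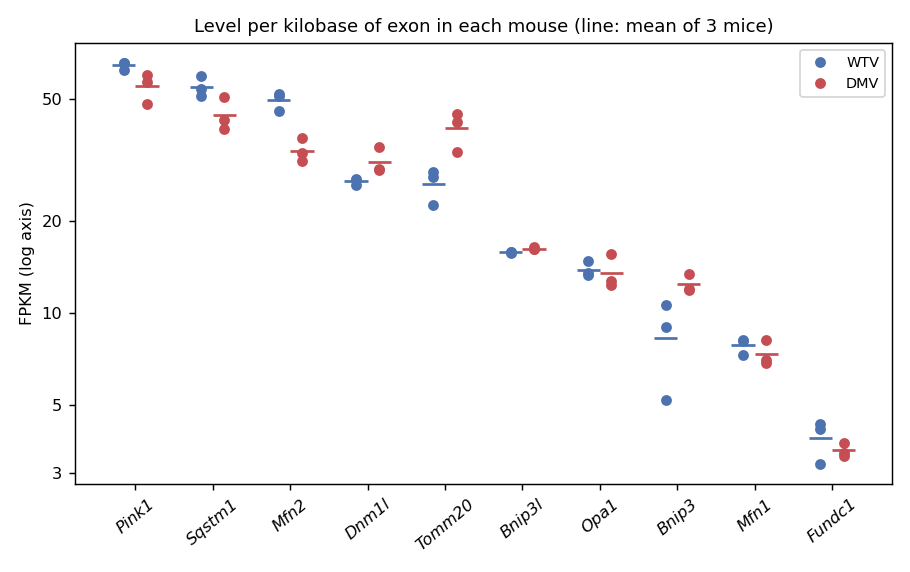
FPKM of the 10 genes (logarithmic axis) in every mouse, ordered by the WTV mean. *Pink1* is highest at 64.4 FPKM on average in WTV and *Fundc1* lowest at 3.90 FPKM, and *Tomm20* lies above *Mfn2* by its mean in DMV only.

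Upstream sequences are shown for the genes that passed the threshold and for *Bnip3* and *Pink1*, as members of the receptor and kinase arms whose start regions carried the letters searched. The sequences come from RefSeq (build GRCm38.p6, not the mm9 of the counts), which had an entry for 9 of the 10 genes, not for *Bnip3l*. Each gives the 250 bases before the most upstream start, 5′ to 3′ on the strand of the gene, which is minus in each case. They are chr8:126945922-126946171 for *Tomm20*, chr4:147904910-147905159 for *Mfn2*, chr7:138909507-138909756 for *Bnip3* and chr4:138326297-138326546 for *Pink1*. Capitals mark ACGTG or GCGTG on either strand, the core letters bound by hypoxia-inducible factors, with CACGC as the reverse of GCGTG.
Tomm20: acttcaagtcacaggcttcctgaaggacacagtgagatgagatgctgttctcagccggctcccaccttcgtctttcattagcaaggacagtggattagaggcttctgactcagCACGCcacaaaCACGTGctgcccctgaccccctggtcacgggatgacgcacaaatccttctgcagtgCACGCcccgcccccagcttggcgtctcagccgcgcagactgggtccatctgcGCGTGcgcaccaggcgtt
Mfn2: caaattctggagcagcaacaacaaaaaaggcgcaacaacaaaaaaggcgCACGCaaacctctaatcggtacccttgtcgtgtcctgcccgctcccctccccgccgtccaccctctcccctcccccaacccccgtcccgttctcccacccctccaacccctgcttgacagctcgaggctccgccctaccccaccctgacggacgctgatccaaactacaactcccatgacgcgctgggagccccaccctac
Bnip3: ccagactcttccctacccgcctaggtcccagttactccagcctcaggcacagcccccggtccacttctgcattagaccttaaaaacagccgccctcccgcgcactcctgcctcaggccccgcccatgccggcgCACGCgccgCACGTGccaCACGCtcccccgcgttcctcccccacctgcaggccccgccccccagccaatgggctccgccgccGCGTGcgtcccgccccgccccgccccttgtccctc
Pink1: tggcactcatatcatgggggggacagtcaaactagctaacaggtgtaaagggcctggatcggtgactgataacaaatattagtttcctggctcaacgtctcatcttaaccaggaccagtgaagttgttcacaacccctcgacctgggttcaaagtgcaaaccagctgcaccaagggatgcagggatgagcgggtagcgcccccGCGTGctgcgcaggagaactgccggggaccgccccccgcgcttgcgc

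*Tomm20* and *Bnip3* each held 1 CACGTG, which reads as ACGTG on both strands and is also the E-box of bHLH factors, and 3 GCGTG. The CACGTG lay 121 to 126 bases before the start in *Tomm20* and 103 to 108 bases before it in *Bnip3*. *Mfn2* and *Pink1* held 1 GCGTG each, and the other 5 genes with an entry held neither core. Of all 32851 windows of this length, 16.6% held ACGTG, 28.2% held GCGTG and 38.6% held either, and CACGTG was found in 6.02%. The letters of the TFEB palindrome known as CLEAR (in 0.24% of all windows), CTTTGAT and CTTTGTT (TCF/LEF, in 3.21% and 5.03%) and GTCTAGAC (SMAD, in 0.167%) were in none of the 9 windows. These are matches of letters in a short window, not measured binding.

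Other genes of the same processes were described by 12 lists, of which 143 of 148 genes were in the table and 140 were tested. In edgeR, 24 of the 140 were higher in DMV and 31 lower (17.1% and 22.1%), beside 19.7% and 17.0% of all genes, and their median log2 fold change was -0.07. When libraries were scaled by size alone, 38 rose and 16 fell, beside 28.0% and 10.7% of all genes, with a median of 0.12 beside 0.22 for all genes.

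Around *Pink1*, the list of the PINK1 arm and mitochondrial ubiquitin had 3 of 17 genes higher and 6 lower (median -0.12), or 4 and 1 by library size alone, beside 19.7% and 17.0% of all genes with TMM and 28.0% and 10.7% by library size alone. *Pgam5*, a phosphatase of the mitochondrial membrane, rose from 2.16 ± 0.413 to 5.33 ± 0.948 CPM, a change of 1.30 on the log2 scale (adjusted p = 0.00635 in edgeR). *Usp35*, a deubiquitinase, fell by 1.58 on the log2 scale (adjusted p = 0.0215 in edgeR) at low level, from 2.64 to 0.879 CPM.

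Beside the receptors and *Sqstm1*, the list of other receptors and adaptors had 1 of 11 higher and 3 lower under either scaling (median -0.19 with TMM), against those same shares. *Tollip*, a ubiquitin-binding adaptor, had 183.1, 196.5 and 184.7 CPM in WTV and 91.49, 82.23 and 97.54 CPM in DMV (log2 fold change -1.06, adjusted p = 0.000308 in edgeR). *Optn*, an adaptor of the PINK1 arm named here after its values were seen, fell from 327 ± 6.12 to 190 ± 11.3 CPM, a change of -0.78 on the log2 scale (adjusted p = 0.000777 in edgeR). *Fundc2*, the paralog of *Fundc1*, rose from 3.13 to 6.38 CPM (1.03 on the log2 scale, adjusted p = 0.0129 in edgeR).

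Of the 5 ATG8 genes, whose products the receptors bind, 2 were lower and 0 higher in edgeR (0 higher at an unadjusted p under 0.05, and 0 in DESeq2 and limma-voom), and by library size alone 0 were called in either direction. *Map1lc3a* fell from 12.5 to 7.77 CPM (-0.68 on the log2 scale, adjusted p = 0.0385 in edgeR), and *Map1lc3b*, the most used autophagosome marker of the family, had 72.6 ± 5.46 CPM in WTV and 73.2 ± 6.38 CPM in DMV (adjusted p = 0.946). Of 25 core autophagy genes, 10 were lower and 1 higher (median -0.34), or 5 and 1 by library size alone (median -0.15). For comparison, 17.0% of all genes were lower and 19.7% higher with TMM, and 10.7% and 28.0% by library size alone. *Atg2a*, a lipid transfer protein of the growing autophagosome, fell from 88.3 ± 3.86 to 48.5 ± 3.85 CPM, a change of -0.86 on the log2 scale (adjusted p = 0.000722 in edgeR). *Atg16l1*, which directs lipidation of the ATG8 proteins, rose from 22.5 to 31.4 CPM (0.48 on the log2 scale, adjusted p = 0.0299).

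Among 11 fission adaptors and effectors, partners of *Dnm1l*, 1 was higher and 1 lower, or 1 and 0 by library size alone, against shares of all genes of 19.7% and 17.0%, or 28.0% and 10.7%. *Inf2*, a formin that assembles actin at fission sites, rose from 2.76 ± 1.28 to 17.2 ± 7.81 CPM, a change of 2.65 on the log2 scale (adjusted p = 0.00432 in edgeR), and *Mief1*, a recruiter of DRP1, fell by 0.44 on the log2 scale (adjusted p = 0.026). *Mff* and *Fis1*, which also encode recruiters of DRP1, did not pass, with 41.6 and 41.1 CPM for *Mff* (adjusted p = 0.932) and 108 and 88.7 CPM for *Fis1* in WTV and DMV (adjusted p = 0.177 in edgeR). Of 9 inner membrane proteases and fusion regulators, 3 were higher and 2 lower, or 3 and 1 by library size alone, against the same shares. *Phb*, encoding a scaffold of the inner membrane, had 62.69, 52.82 and 54.44 CPM in WTV and 126.6, 135.5 and 114.2 CPM in DMV (log2 fold change 1.15, adjusted p = 0.000333 in edgeR). *Oma1*, the protease that cuts OPA1 under stress, fell from 28.9 to 20.8 CPM (-0.47 on the log2 scale, adjusted p = 0.0358), and *Miga2*, a fusion factor of the outer membrane, fell by 0.70 (adjusted p = 0.0132 in edgeR).

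Of 11 other genes of the TOM complex and sorting machinery, 2 were higher and 0 lower in edgeR (median 0.31, 6 higher by library size alone, with 0 lower at an unadjusted p under 0.05 and 0 lower in DESeq2 and limma-voom), against 19.7% and 17.0% of all genes, or 28.0% and 10.7% by library size alone. *Tomm5*, a small subunit of the complex, rose from 13.2 ± 2.31 to 31.4 ± 3.76 CPM, a change of 1.25 on the log2 scale (adjusted p = 0.000905 in edgeR). Of 19 genes of inner membrane import, 6 were higher and 0 lower in edgeR (median 0.37, again with 0 lower at an unadjusted p under 0.05 and in DESeq2 and limma-voom), and 13 were higher by library size alone and 9 without WTV replicate 1. *Timm9*, a chaperone of the intermembrane space, rose from 6.55 ± 1.15 to 20.2 ± 3.77 CPM, a change of 1.63 on the log2 scale (adjusted p = 0.000704 in edgeR). Of the 7 genes of the MICOS complex, which shapes the cristae, 1 was higher, *Chchd6*, at 0.425 CPM in WTV and 1.45 CPM in DMV (adjusted p = 0.0279 in edgeR), and 2 were higher by library size alone.

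Of 5 genes for the transport of mitochondria along microtubules, a process in which mitofusin 2 also takes part, 3 were lower and 0 higher in edgeR (median -0.57, with 0 higher at an unadjusted p under 0.05 and in DESeq2 and limma-voom). *Trak2*, an adaptor to the motor proteins, had 110.5, 86.33 and 70.61 CPM in WTV and 48.45, 39.1 and 45.85 CPM in DMV, with no overlap. It fell by 1.0 on the log2 scale (adjusted p = 0.00285 in edgeR). By library size alone the list had 3 lower and 1 higher. The shares of all genes were 17.0% lower and 19.7% higher with TMM, and 10.7% and 28.0% by library size alone.

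*Bnip3* was also set beside other hypoxia-inducible genes, of which 6 of 13 were higher and 2 lower under either scaling (median 0.74 with TMM), beside 19.7% and 17.0% of all genes with TMM and 28.0% and 10.7% by library size alone. *Ankrd37* had 7.664, 7.725 and 8.542 CPM in WTV and 28.73, 30.61 and 27.86 CPM in DMV (log2 fold change 1.87, adjusted p = 7.31e-05 in edgeR). *Egln3*, a prolyl hydroxylase that acts on hypoxia-inducible factors, went the other way, from 286 ± 51.0 to 106 ± 12.9 CPM, a change of -1.43 on the log2 scale (adjusted p = 0.000379). Among 7 regulators of autophagy and hypoxia transcription, 2 were lower and 0 higher in edgeR (0 higher at an unadjusted p under 0.05 and in DESeq2 and limma-voom). Only 1 was lower in limma-voom, by library size alone and without WTV replicate 1. *Foxo3*, a factor that drives *Bnip3* and autophagy genes in other tissues, fell from 110 ± 16.7 to 59.4 ± 10.6 CPM, a change of -0.89 on the log2 scale (adjusted p = 0.00383 in edgeR). *Hif1a* had 97.3 ± 24.2 CPM in WTV and 66.2 ± 5.97 CPM in DMV, a call (adjusted p = 0.0458) that library size alone did not keep (adjusted p = 0.146 in edgeR).

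The calls of the named pathway genes were of unequal firmness. Those of *Pgam5*, *Tollip*, *Optn*, *Atg2a*, *Inf2*, *Phb*, *Miga2*, *Tomm5*, *Timm9*, *Trak2*, *Ankrd37*, *Egln3* and *Foxo3* passed without any single mouse. *Usp35* was lost without DMV replicate 2 (adjusted p = 0.0668 in edgeR) and *Fundc2* without DMV replicate 3 (adjusted p = 0.0568). Fewer of these 6 fits kept the calls of *Map1lc3a* (3 of 6, highest adjusted p 0.129), *Mief1* (2 of 6, 0.0933), *Chchd6* (2 of 6, 0.109), *Atg16l1* (1 of 6, 0.103), *Oma1* (1 of 6, 0.116) and *Hif1a* (1 of 6, 0.142 in edgeR). By library size alone, *Map1lc3a* (adjusted p = 0.114), *Mief1* (0.144) and *Oma1* (0.174 in edgeR) did not pass either.

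**Figure D5:**
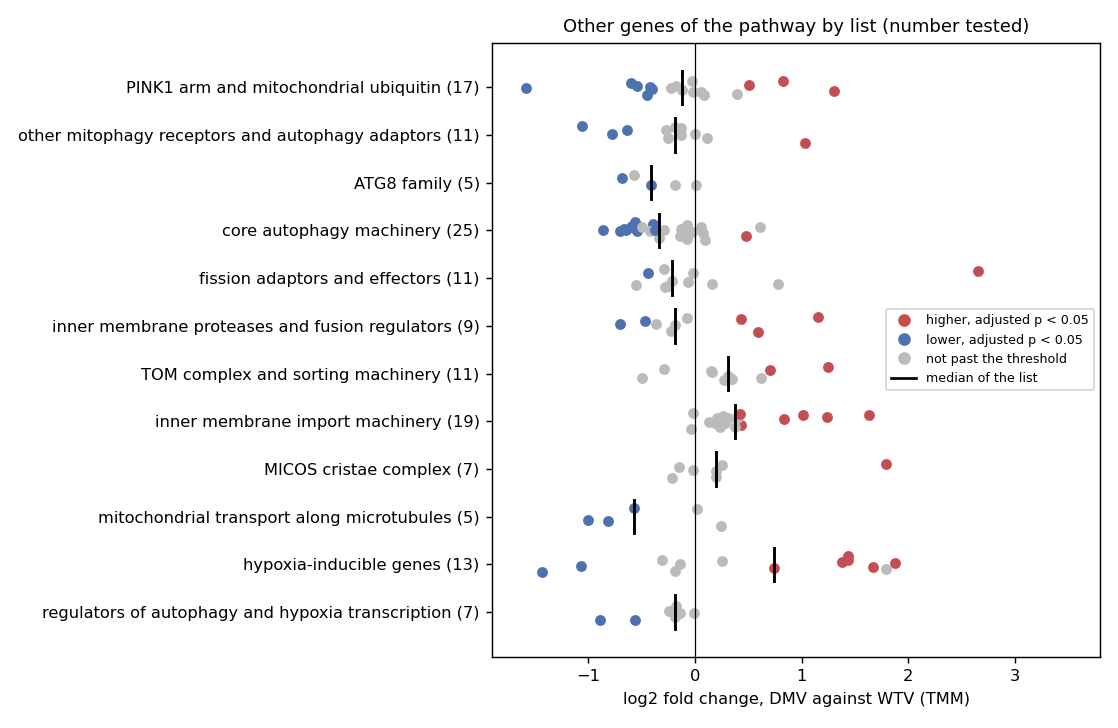
Log2 fold change (horizontal axis, TMM) of each tested gene of the 12 lists of other pathway genes, colored by call, with the median of each list as a black line. Medians run from -0.57 for transport along microtubules to 0.74 for hypoxia-inducible genes, and the lists of core autophagy and of inner membrane import lie on opposite sides of 0 (-0.34 and 0.37).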

How the data were processed

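Counts per gene were analysed for 6 libraries, 1 per mouse, grouped by the genotype in the labels. Per the labels and the methods of the study, the authors aligned paired reads of 150 bp to mm9 with HISAT2, counted them with featureCounts and deposited raw counts, with no normalization or pooling. Strand and multimapping settings are not given in the sources used here.

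Symbols, positions and exon lengths came from the GENCODE annotation of mm9 (20032 of 20073 Ensembl identifiers matched). Genes kept by filterByExpr with the group were fitted in edgeR 4.0.16 (R 4.3.3) with TMM, glmQLFit (robust) and glmQLFTest, adjusted by Benjamini-Hochberg over all 13346 genes. Calls had an adjusted p under 0.05. Each standard error was taken as log2 fold change over the root of F, intervals used the quasi-likelihood degrees of freedom, and CPM carry no prior count. The fit was first tested on simulated counts. It called 37 of 67 genes (55.2%) with an absolute log2 fold change of 1 and 60 of 67 (89.6%) with 2. Smaller changes were not simulated. P-values weigh the difference between the groups against the spread between mice.

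Alternatives were DESeq2 1.42.0, limma-voom (limma 3.58.1), other scalings and filters, fold thresholds, sex as a covariate, a replicate block, each mouse left out and, added after seeing the data, copies counted with their gene.

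The 10 genes, the pathway and marker lists and the rule for named genes (all members, the largest called change in either direction per list, and *Map1lc3b*, *Fis1*, *Mff*, *Oma1* and *Hif1a*) were chosen with earlier results of these data known. A further gene of the rule is not reported here. Genes of the lists that were not matched in the table were not analysed here, nor were stainings, blots and single-cell data.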

Additional observations from a re-analysis of the deposited data

How the results depend on the processing

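*Mfn2* and *Tomm20* kept their direction in all 15 alternative fits. At an adjusted p under 0.05 alone, *Mfn2* passed in 15 of 15 and *Tomm20* in 12 of 15, with the exceptions given above, each a mouse left out. Both calls were lost under the fold thresholds. *Bnip3* passed in 2 of 15 and *Dnm1l* in 1, by library size alone in both cases and without WTV replicate 1 for *Bnip3*. *Fundc1* (0.06), *Mfn1* (0.10) and *Opa1* (0.16) changed sign by library size alone, and *Opa1* also without WTV replicate 1 (0.01), DMV replicate 2 (0.01) or DMV replicate 3 (0.03), none past the threshold, with a range of -0.14 to 0.03 over the mice left out. Library size alone called 3 of the 10 genes higher, 1425 of all genes lower, and 38 of the other pathway genes higher and 16 lower. A log2 fold change of at least 1 left 1454 genes higher and 832 lower, 14 and 5 of the pathway genes and 0 and 0 of the 10 genes. A log2 fold change of at least 2 left 406 and 302 genes, 1 and 0 pathway genes, and 0 and 0 of the 10. Over the fits that each lacked 1 mouse, the number of the 10 genes called higher ran from 0 to 2, and that of pathway genes called lower from 19 to 28, lowest without DMV replicates 2 (19) and 3 (20). For the remaining alternatives the cause of a change was not tested.

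Replicate numbers are shared between the groups, but same-numbered mice did not deviate together (correlations 0.022, -0.109 and 0.012). With so few mice these correlations cannot show whether the numbers pair the mice. The paper describes replicates matched for age and sex across the groups. With a replicate block, 2084 genes were higher and 1750 lower, and the calls among the 10 genes did not change (*Mfn2* adjusted p = 0.0281, *Tomm20* adjusted p = 0.0349 in edgeR). With 3 mice per group, the 95% intervals of the uncalled genes are the limit on what could be seen.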

Other observations

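*Bnip3l*, singled out here after its values were seen for being the least spread of the 10 genes, had a coefficient of variation of 0.178% in WTV and 0.903% in DMV, beside a counting error of 2.83% and 2.74% at its depth (1118 to 1461 counts). With 3 mice per group a coefficient of variation is itself poorly known, and this one was not tested. *Bnip3* had the widest spread in WTV at 33.6%, against 6.75% in DMV, where counting error is 5.30% and 4.09%.

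Among 7903 genes with a mean of at least 10 CPM, the genes whose log2 CPM was most like that of *Pink1* over the 6 mice were *Ppp2r5a* (Pearson r = 0.9897), *Ccdc71* (0.9878) and *Zfp622* (0.9852). For *Tomm20* they were *Rps27a* (0.998), *1810027O10Rik* (0.9953) and *Psma7* (0.9947), which encode a ribosomal protein fused to ubiquitin in the first case and a proteasome subunit in the last. These values are a description over 6 libraries that share the difference between the groups, with no test.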
